A study of Homo sapiens with 6 samples.

Results

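Polyamine metabolism was examined here through 10 genes of polyamine synthesis, breakdown and antizyme control, taken by gene symbol from count tables of 56832 rows. All 10 were found, and all 10 passed the filter on low counts, among 17415 genes tested. The cells were HEK293T, an established human embryonic kidney epithelial line, made GLO1 knockout. Glyoxalase 1, the product of that gene, begins the breakdown of methylglyoxal (MGO), a reactive by-product of glycolysis that modifies proteins. Every library, the controls included, came from these knockout cells. Untreated cells gave 3 libraries, numbered 1, 2 and 4, and cells kept overnight in medium with 0.2 mM MGO gave 3 libraries, numbered 1, 3 and 4. The labels do not say whether the knockout line was 1 clone or whether libraries came from separate cultures. P-values here thus reflect library-to-library spread, and that spread may be purely technical.

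Putrescine, spermidine and spermine are small, positively charged molecules that bind RNA and DNA, and dividing cells need them for translation and growth. Putrescine is made from ornithine by ornithine decarboxylase, and spermidine and spermine are built on it with aminopropyl groups taken from decarboxylated S-adenosylmethionine. The pathway is held in check by antizymes, which bind ornithine decarboxylase and send it to the proteasome, and by acetylation and oxidation, which turn the longer polyamines back into shorter ones. Much of this control acts on translation and protein stability, which counts of messenger RNA do not measure.

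The MGO libraries were shallower than the untreated ones, at 19195920 to 21544749 counts against 41002134 to 45910040, so low genes are measured less well in MGO. Mitochondrially encoded RNA took 5.42%, 4.20% and 4.28% of the counts without MGO (libraries 1, 2 and 4) against 8.17%, 6.00% and 5.34% with it (libraries 1, 3 and 4) (two-sided exact permutation p = 0.2). The targeted gene, GLO1, was detected in every library and was higher in MGO (48.1 ± 2.57 to 140 ± 5.30 CPM, SD, n = 3). A knockout can leave the transcript in place, so these counts do not check it. All 8 markers of the HEK293 lineage were detected, with KRT8, VIM and SOX11 the highest, at a summed level of 1573 to 1630 CPM in untreated and 1825 to 1859 CPM in MGO libraries. The higher sum came from KRT8, KRT18 and VIM, while the other 5 had lower means in MGO (SOX11 415 to 333, NEFL 165 to 38.1, PAX2 13.2 to 2.77, LHX1 10.8 to 4.50 and NEFM 1.57 to 0.440 CPM). Of the 5 blood markers none had more than 5 counts in any library, and the 4 endothelial markers summed to at most 1.75 CPM. The 5 fibroblast markers summed to 23.3 to 24.5 CPM in untreated and 11.1 to 13.2 CPM in MGO libraries, nearly all of it COL1A1, with COL1A2 at 0 counts. Levels below are TMM-scaled CPM, that is, counts divided by the scaled library total (CPM). A change is thus relative to that scaled total and is not a change in plain share of the library. In bulk RNA, fewer cells expressing a gene and less RNA per cell cannot be told apart.

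All 10 polyamine genes passed the test, 8 higher and 2 lower in MGO (edgeR quasi-likelihood test, adjusted p under 0.05 over all genes tested), though the signs of ODC1 and OAZ2 turned with no filter on low counts. So did 83.1% of all genes tested, 41.8% higher and 41.2% lower, so passing the test does not set these genes apart. The changes were uneven. The acetylating and oxidizing enzymes SAT1 and SMOX rose more than 2-fold, the antizyme inhibitor AZIN1 rose 1.89-fold and the antizyme OAZ1 1.45-fold. The spermine synthase gene SMS fell 1.41-fold, and PAOX, a further oxidase of the breakdown and low in level, fell 1.73-fold. ODC1, AMD1, SRM and OAZ2 differed by 1.10-fold to 1.21-fold, at percentiles 10.9 to 21.3 of the absolute changes of all genes tested, and each lost its call in at least 1 other scaling or filter. The 10 genes had a median log2 fold change of 0.24, against 0.01 over all genes tested, and a median absolute log2 fold change of 0.51, against 0.71 over all genes tested. In each of the 10 genes the 3 MGO libraries did not overlap the 3 untreated ones, which was also true of 83.5% of all genes tested.

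**Figure D1:**
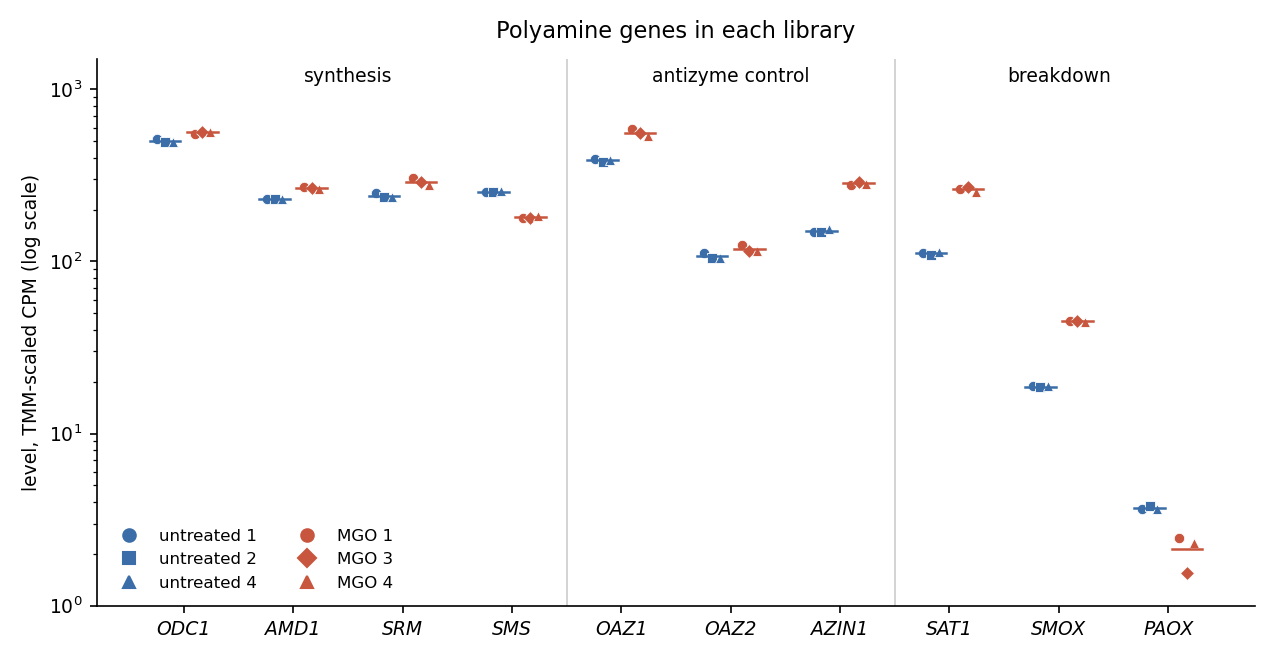
Level of each polyamine gene in every library, in TMM-scaled CPM on a log axis, with genes grouped by role. Each symbol is a library and each short line the mean of 3 libraries. SAT1, SMOX and AZIN1 show the widest gaps between MGO and untreated among the genes that rose, and SMS and PAOX are lower in MGO.

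ODC1, ornithine decarboxylase, makes putrescine and is the classic control point of the pathway (GRCh38 chromosome 2, 10439968 to 10448504, minus strand). It stood at 514, 498 and 498 CPM in the untreated libraries (numbers 1, 2 and 4) against 552, 568 and 564 CPM with MGO (numbers 1, 3 and 4). The MGO libraries were the higher ones, by 1.12-fold (log2 fold change 0.16, SE 0.034, adjusted p = 8.88e-05, edgeR quasi-likelihood test). That gap is small beside the choice of scaling. With library size as the only scaling the groups overlapped, at 517 to 530 against 521 to 551 CPM without TMM, and ODC1 was not called (log2 fold change 0.05, adjusted p = 0.193), and with no filter on low counts the sign turned (log2 fold change -0.02, adjusted p = 0.638). The row SNORA80B, a small nucleolar RNA in an intron of ODC1, held 3 to 7 counts in a library.

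AMD1, S-adenosylmethionine decarboxylase, supplies the aminopropyl groups (chromosome 6, 110874770 to 110895713, plus strand). It stood at 232, 230 and 229 CPM in untreated and at 269, 266 and 264 CPM in MGO libraries. Both groups were tight and apart, with AMD1 1.16-fold higher in MGO (log2 fold change 0.21, SE 0.035, adjusted p = 2.58e-06, edgeR quasi-likelihood test), though with no filter on low counts the log2 fold change was 0.03 (adjusted p = 0.594). The AMD1 messenger RNA is known for a very short open reading frame in its leader, at which ribosomes stall when polyamines are plentiful. It is shown because it is a step of polyamine control that lies in the measured transcript and that these counts do not read. In the GENCODE transcript it starts at base 27 of a leader of 336 bases, lies at chr6:110874796-110874816 on the plus strand of GRCh38, and holds 6 sense codons and a stop, with start and stop in capitals.
AMD1 upstream frame: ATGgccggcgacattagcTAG

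SRM and SMS encode the aminopropyltransferases that act in turn, spermidine synthase and spermine synthase, and they went in opposite directions. SRM (chromosome 1, 11054584 to 11060024, minus strand) stood at 251, 238 and 236 CPM in untreated and 307, 290 and 277 CPM in MGO libraries. Its MGO libraries were all above the untreated ones, by 1.21-fold (log2 fold change 0.27, SE 0.039, adjusted p = 2.51e-07, edgeR quasi-likelihood test), and with no filter on low counts the log2 fold change was 0.09 (adjusted p = 0.0762). SMS (chromosome X, 21940573 to 21994835, plus strand) stood at 253, 253 and 256 CPM in untreated and 180, 178 and 184 CPM in MGO libraries. SMS fell in all 3 MGO libraries to a narrow range, 1.41-fold below untreated (log2 fold change -0.49, SE 0.036, adjusted p = 7.79e-14, edgeR quasi-likelihood test). Relative to SRM, the count of SMS within a library, which no scaling can change, went from 1.05 ± 0.0394 in untreated to 0.622 ± 0.0388 in MGO (SD, n = 3), a ratio 1.70 times lower.

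SRM followed the mitochondrial share of counts in part. It was highest in untreated library 1 and in MGO library 1, the libraries with the highest share in their groups, and its order over the 3 MGO libraries was that of the share. OAZ1 and AMD1 showed the same order over the MGO libraries and were also highest in untreated library 1. OAZ2 was highest in library 1 of each group too. Without both libraries numbered 1, the log2 fold change was 0.25 for SRM, 0.50 for OAZ1, 0.12 for OAZ2 and 0.20 for AMD1. With them it was 0.27, 0.53, 0.14 and 0.21. All of these genes were still called without them (adjusted p = 6.32e-09, 4.63e-21, 0.00800 and 1.14e-06, edgeR quasi-likelihood test). Whether the mitochondrial share has a part in the remaining differences was not tested.

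OAZ1 and OAZ2 encode antizymes, which bind ornithine decarboxylase and also slow polyamine uptake. OAZ1 (chromosome 19, 2269509 to 2273490, plus strand) stood at 395, 379 and 389 CPM in untreated and 591, 557 and 535 CPM in MGO libraries. It rose in all 3 MGO libraries, by 1.45-fold (log2 fold change 0.53, SE 0.037, adjusted p = 2.16e-14, edgeR quasi-likelihood test). OAZ2 (chromosome 15, 64687573 to 64703281, minus strand) stood at 112, 105 and 105 CPM in untreated and 125, 114 and 115 CPM in MGO libraries. The groups came within 3 CPM of each other, and the difference was 1.10-fold (log2 fold change 0.14, SE 0.042, adjusted p = 0.00338, edgeR quasi-likelihood test). This OAZ2 call was lost without MGO replicate 1 (log2 fold change 0.07, adjusted p = 0.106) and with library size as the only scaling (0.03, adjusted p = 0.50), and with no filter on low counts the sign turned (-0.04, adjusted p = 0.418). Relative to OAZ1 in the same library, OAZ2 went from 0.277 ± 0.00749 in untreated to 0.210 ± 0.00471 in MGO (SD, n = 3), 1.31-fold lower.

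Full-length antizyme is made only when ribosomes slip forward past a stop codon, and polyamines favour the slip, so a change in OAZ1 or OAZ2 messenger RNA is not a change in antizyme protein. The site is shown because both antizyme genes share it and the 2 genes changed by different amounts. In the GENCODE annotation the coding sequence leaves out exactly 1 base there, the T that opens the stop codon, at position 2271443 of chromosome 19 in OAZ1 and position 64691515 of chromosome 15 in OAZ2. The windows below lie in coding exons, at chr19:2271410-2271499 on the plus strand and chr15:64691459-64691548 on the minus strand of GRCh38, with the codon before the slip and the stop codon in capitals, and 65 of their 90 bases are identical.
OAZ1 shift site: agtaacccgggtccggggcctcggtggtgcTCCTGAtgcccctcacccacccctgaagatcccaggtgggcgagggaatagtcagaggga
OAZ2 shift site: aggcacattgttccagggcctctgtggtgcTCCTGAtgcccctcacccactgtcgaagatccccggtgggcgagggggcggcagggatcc

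AZIN1, the antizyme inhibitor, resembles ornithine decarboxylase but has no decarboxylase activity, and it takes antizyme away from the enzyme (chromosome 8, 102826357 to 102893864, minus strand). AZIN1 stood at 149, 149 and 154 CPM in untreated and at 280, 289 and 283 CPM in MGO libraries. All 3 MGO libraries lay far above the untreated ones, by 1.89-fold (log2 fold change 0.92, SE 0.037, adjusted p = 1.28e-20, edgeR quasi-likelihood test). It was called in every one of 20 other settings, with log2 fold changes from 0.73 to 0.98. Within a library AZIN1 also stood higher relative to its partners in MGO. Its count per ODC1 count went from 0.299 ± 0.00970 to 0.505 ± 0.00333, and its count per OAZ1 count from 0.389 ± 0.00936 to 0.507 ± 0.0299 (SD, n = 3).

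SAT1, spermidine/spermine acetyltransferase, tags polyamines for export or oxidation and is known as the rate-limiting step of their breakdown (chromosome X, 23783173 to 23786226, plus strand). SAT1 stood at 112, 109 and 114 CPM in untreated and at 263, 272 and 253 CPM in MGO libraries. The MGO libraries were all more than 2 times as high as any untreated one, with a fold of 2.35 (log2 fold change 1.23, SE 0.039, adjusted p = 2.66e-23, edgeR quasi-likelihood test). SMOX, spermine oxidase, turns spermine back into spermidine and releases hydrogen peroxide (chromosome 20, 4120980 to 4187747, plus strand). It stood at 18.8, 18.7 and 18.8 CPM in untreated and at 45.1, 45.1 and 44.6 CPM in MGO libraries. The SMOX libraries were nearly identical within each group and 2.39-fold apart (log2 fold change 1.26, SE 0.051, adjusted p = 1.86e-20, edgeR quasi-likelihood test). SAT1 and SMOX were called in all 20 other settings, with log2 fold changes of 1.05 to 1.298 and 1.08 to 1.32. Among all genes tested, 19.8% were called and at least 2-fold higher in MGO, and the log2 fold changes of SAT1 and SMOX stood at percentiles 83.5 and 83.8.

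PAOX, the peroxisomal oxidase that acts on acetylated polyamines downstream of SAT1, went the other way at a low level (chromosome 10, 133379234 to 133391694, plus strand). It had 168, 182 and 155 counts in untreated and 45, 29 and 49 counts in MGO libraries, or 3.62, 3.80 and 3.64 CPM against 2.49, 1.56 and 2.33 CPM. The groups did not overlap, but MGO library 3 lay well below the other two MGO libraries, and the SE was the widest of the 10 genes. PAOX was 1.73-fold lower in MGO (log2 fold change -0.79, SE 0.15, adjusted p = 2.21e-05, edgeR quasi-likelihood test), with values from -0.93 to -0.65 when each library was left out in turn. In the same libraries, the count of SAT1 per count of PAOX went from 29 to 31 in untreated to 106, 174 and 109 in MGO libraries 1, 3 and 4.

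**Figure D2:**
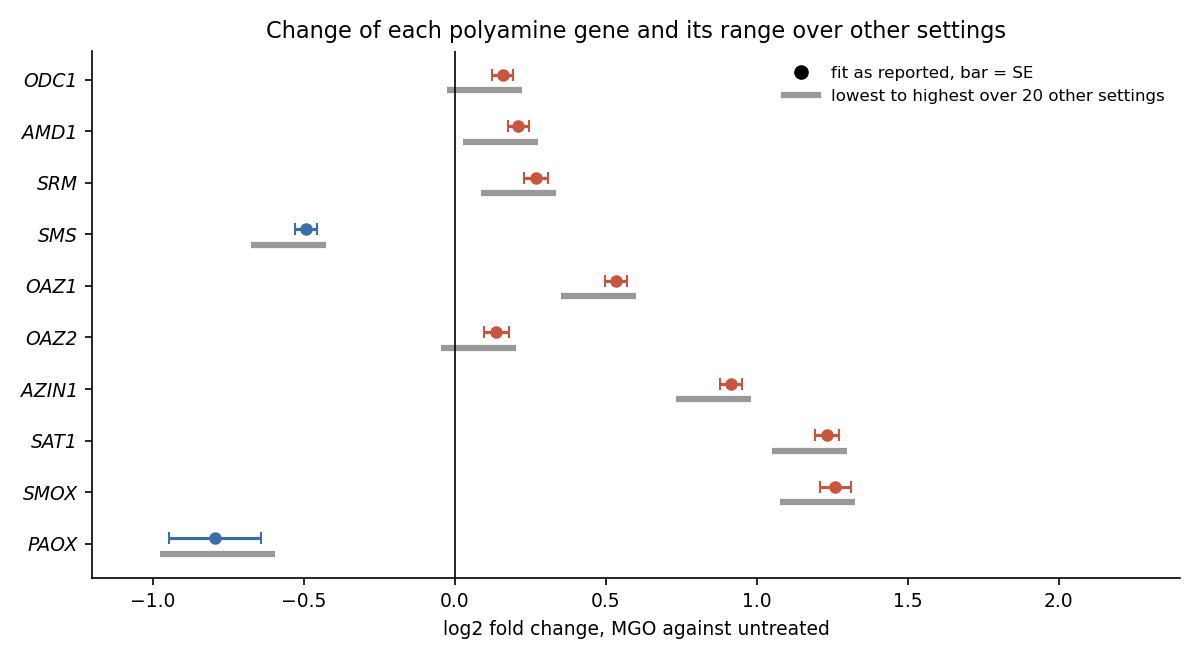
Log2 fold change of each polyamine gene in MGO against untreated, with a bar for the SE (points) and the lowest to highest value over 20 other settings (grey bars). SAT1, SMOX, AZIN1, OAZ1, SRM and AMD1 stay above 0 and SMS and PAOX below 0 in every setting. SRM and AMD1 come close to 0, at 0.09 and 0.03, with no filter on low counts. The grey bars of ODC1 and OAZ2 reach below 0 in that setting.

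Tested against a fold of 1.5 in place of 1, SAT1, SMOX and AZIN1 remained called (adjusted p = 4.99e-17, 1.94e-14 and 1.3e-10, edgeR's test against a fold), and the other 7 genes did not pass. By that test 0 of the 10 were called lower. Of all 17415 genes tested, it called 4363 higher and 3942 lower, so these counts do not set the 10 genes apart. At an unadjusted p under 0.05, 1 of them, PAOX, was lower (edgeR, adjusted p = 0.0627) and 3 were higher.

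Count ratios between pairs of these genes do not depend on scaling, and 12 pairs were tested over the 6 libraries (exact permutation, two-sided). The smallest p that 3 against 3 libraries allow is 0.1, so no pair could pass 0.05. In 9 pairs the groups did not overlap (exact permutation p = 0.1, adjusted p = 0.133 over the 12 pairs). Taken singly, 83.5% of all genes tested did not overlap either, and the share over gene pairs in general was not measured. SAT1 per ODC1 was 0.218, 0.219 and 0.229 without MGO against 0.476, 0.478 and 0.449 in MGO libraries, 2.11 times higher. SMOX per SRM went the same way, from 0.0777 ± 0.00244 to 0.154 ± 0.00706 (SD, n = 3). OAZ1 per ODC1 was 0.767, 0.762 and 0.781 without MGO against 1.07, 0.980 and 0.948 in MGO libraries, so that OAZ1 counts came level with ODC1 counts. AMD1 per ODC1 moved little, from 0.458 ± 0.00645 to 0.474 ± 0.0112. The other 3 pairs overlapped between the groups. OAZ2 per ODC1 was 0.213 ± 0.00415 against 0.210 ± 0.0143 (exact permutation p = 0.8), SMOX per SAT1 was 0.168 ± 0.00364 against 0.171 ± 0.00487 (exact permutation p = 0.5), and SRM per AMD1 was 1.05 ± 0.0295 against 1.094 ± 0.0458 (exact permutation p = 0.2, n = 3 each). SAT1 and SMOX thus stood in overlapping proportions to each other in the 2 groups, while SAT1 per ODC1 and SMOX per SRM were separated.

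**Figure D3:**
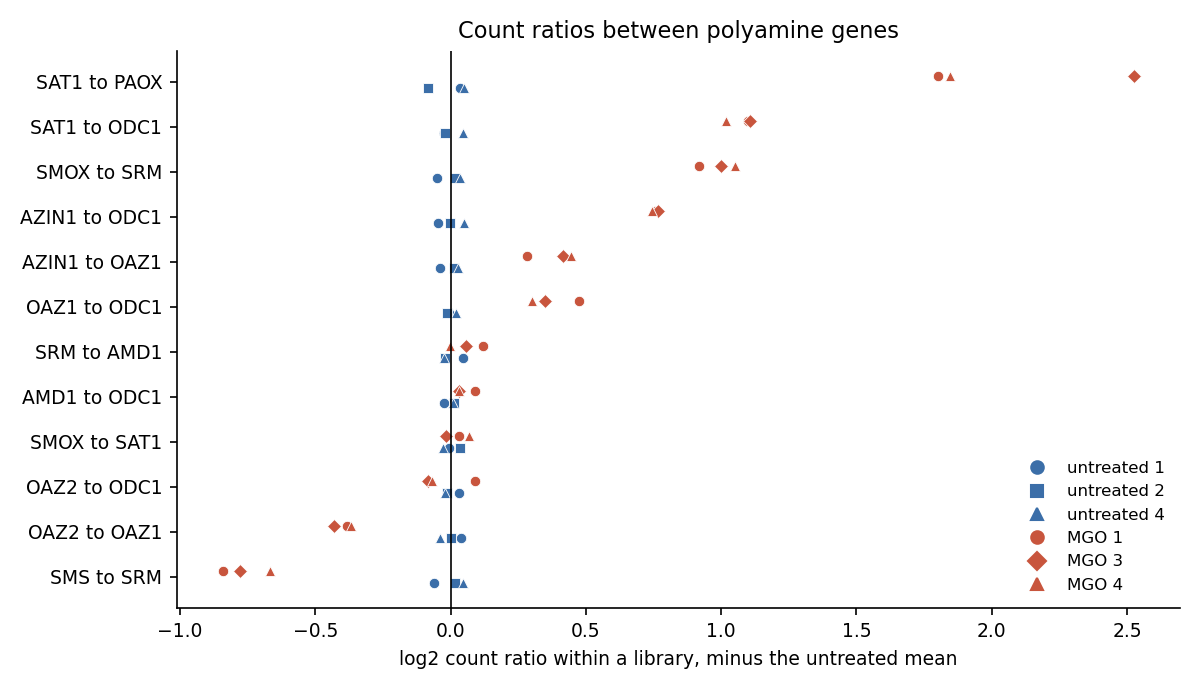
Log2 count ratio of 12 pairs of polyamine genes within each library, after subtracting the mean of the 3 untreated libraries. Each symbol is a library. SAT1 to PAOX, SAT1 to ODC1 and SMOX to SRM lie furthest to the right in MGO, SMS to SRM lies furthest to the left, and SRM to AMD1, SMOX to SAT1 and OAZ2 to ODC1 overlap.

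Levels of different genes were compared per kilobase of merged exon in the GENCODE annotation, as CPM per kilobase. ODC1 was highest in both groups, at 170 ± 3.27 in untreated and 189 ± 2.81 in MGO (SD, n = 3). In untreated libraries SRM (127 ± 4.25), SMS (118 ± 0.858) and OAZ1 (113 ± 2.23) followed closely, then SAT1 (44.7 ± 1.08), AMD1 (32.8 ± 0.170), AZIN1 (23.4 ± 0.457), OAZ2 (13.98 ± 0.544), SMOX (6.37 ± 0.0189) and PAOX (1.62 ± 0.0436). No neighbours in that order overlapped over the 3 untreated libraries, though the lowest SMS library (117.2) and the highest OAZ1 library (114.8) were close. In MGO the order changed. OAZ1 (163 ± 8.23) and SRM (154 ± 7.90) now overlapped each other below ODC1, SAT1 (105 ± 3.66) stood above SMS (83.7 ± 1.29), AZIN1 (44.2 ± 0.735) stood above AMD1 (37.9 ± 0.365), and SMOX (15.3 ± 0.109) overlapped OAZ2 (15.4 ± 0.813). PAOX (0.933 ± 0.218) stayed lowest. These levels use every annotated exon, whose summed length was longest for OAZ2 (7671 bases) and AMD1 (7027 bases), and which exons the cells used was not measured.

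**Figure D4:**
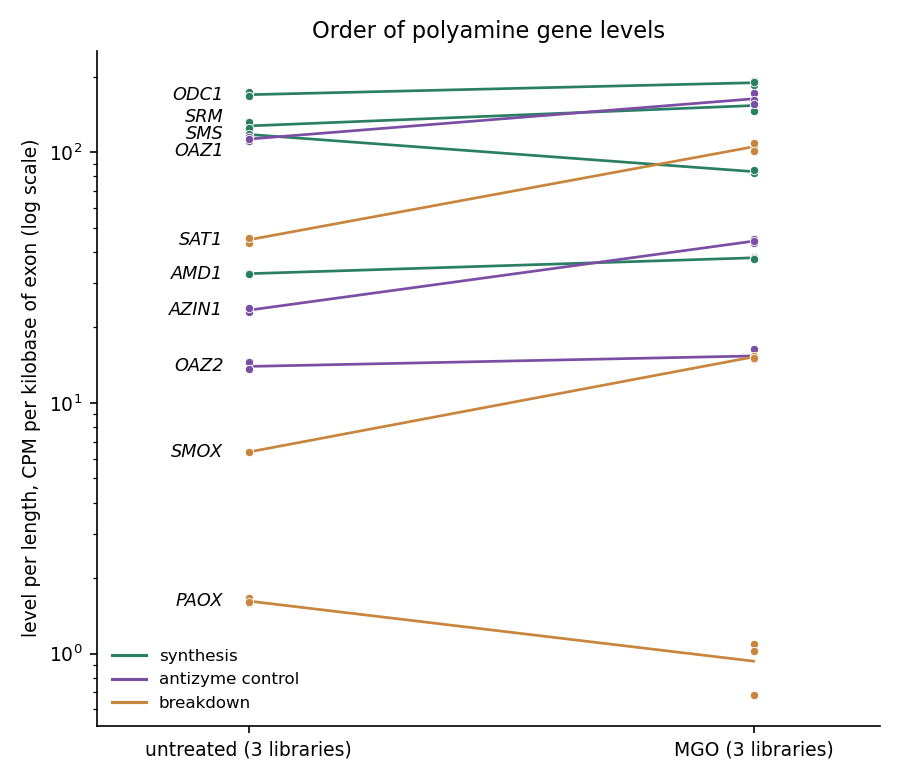
Level per length of each polyamine gene, in CPM per kilobase of exon on a log axis, in untreated and MGO libraries. Points are libraries and lines join the means of 3. SAT1 stands below SMS in untreated and above it in MGO, OAZ1 draws level with SRM, and SMOX draws level with OAZ2.

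Reads of some of these genes may be shared with other annotated genes. Exons of OAZ1 overlap AC005258.1, a protein-coding gene on the same strand, and JSRP1 on the opposite strand (7 to 19 counts in a library). Exons of OAZ2 overlap the antisense genes AC100830.3 (1 to 7 counts) and AC100830.1, AZIN1 overlaps AZIN1-AS1, and the end of PAOX overlaps AL360181.3 on the same strand. AMD1 and SRM have processed pseudogenes, of which SRMP1 had 0 counts. The sources used here do not give the authors' strand setting or their rule for such reads.

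Promoter windows from RefSeq (GRCh38.p14) matched 7 of the 10 genes, and AZIN1, SMOX and PAOX were not matched. The 250 bases before each start were searched on both strands for CACGTG, the E-box bound by MYC with MAX among others, for CCAAT, the core of the NF-Y site, for TGATGNAA, a form of the site shared by C/EBP and ATF4, for TGANTCA, the AP-1 site, and for GGGCGG, the GC box. The GC box was found in windows of 6 of the 7 genes, all but SAT1, and in 42.6% of all windows. The E-box was found in the SRM window, 199 bases before the start, and in 1 of the 2 ODC1 windows, 29 bases before that start. That ODC1 window, 10447963 to 10448262, lies inside the gene as given above. Of 35114 windows, 6.35% held the E-box. The NF-Y core was found in the windows of SAT1 (79 and 13 bases before the start) and SRM (110 and 80). It was in those of SMS (170) and OAZ1 (149 and 109), in 1 of the AMD1 windows (21), and in 32.0% of all windows. That AMD1 window, 110814367 to 110814666, ends well before the gene start given above. The AMD1 windows that begin at 110874534 and 110874535 held no CCAAT. The C/EBP and ATF4 form was in no window of these genes (3.14% of all windows), and the AP-1 site was in that of OAZ2 alone (6.57% of all windows). These matches did not overlap one another, and they describe letters in these windows, not binding.

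The stretches before SAT1, the gene with the largest rise among those matched, and before SMS and SRM, the synthases that moved apart, are shown with CACGTG and CCAAT, or its reverse complement ATTGG, in capitals. They lie at chrX:23782923-23783172 (plus strand), chrX:21940459-21940572 (plus strand) and chr1:11060025-11060268 (minus strand) and stop before the first annotated exon. SMS and SAT1, both on the X chromosome, moved in opposite directions, and both held CCAAT.
SAT1 upstream: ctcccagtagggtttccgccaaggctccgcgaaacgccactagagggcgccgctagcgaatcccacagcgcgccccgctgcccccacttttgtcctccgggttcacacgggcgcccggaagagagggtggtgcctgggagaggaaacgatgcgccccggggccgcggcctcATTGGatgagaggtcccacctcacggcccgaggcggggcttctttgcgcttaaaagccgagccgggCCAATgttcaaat
SMS upstream: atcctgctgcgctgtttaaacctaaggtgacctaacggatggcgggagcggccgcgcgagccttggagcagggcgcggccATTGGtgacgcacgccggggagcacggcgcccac
SRM upstream: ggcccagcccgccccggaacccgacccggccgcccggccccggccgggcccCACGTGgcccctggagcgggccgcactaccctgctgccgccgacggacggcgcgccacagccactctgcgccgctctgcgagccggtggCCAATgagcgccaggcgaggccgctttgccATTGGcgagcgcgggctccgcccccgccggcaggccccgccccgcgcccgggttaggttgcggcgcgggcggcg

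The genes that feed, use or move polyamines, with other polyamine enzymes and antizyme family genes, were examined as a second list. Of 37 further genes of the pathway, 30 were tested, and 8 were higher, 19 lower and 3 not called (41.8% and 41.2% of all genes tested were higher and lower), with a median log2 fold change of -0.53 against 0.01 over all genes tested. At least 2-fold changes were called higher in 3 and lower in 9 of them, against 19.8% and 16.7% of all genes tested. The 7 that did not pass the filter on low counts had at most 20 counts in any library.

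Precursor supply held the largest falls. Of 8 tested genes 7 were lower and 1 higher, with a median log2 fold change of -0.85. Over all genes tested, 41.2% were lower and 41.8% higher. MAT2A, which makes the S-adenosylmethionine that AMD1 decarboxylates, stood at 260, 263 and 265 CPM in untreated and at 28.6, 32.9 and 35.4 CPM in MGO libraries. All 3 MGO libraries lay far below the untreated ones, 8.12-fold lower on average (log2 fold change -3.02, SE 0.052, adjusted p = 1.99e-27, edgeR quasi-likelihood test), while AMD1 itself stood slightly higher. GATM, which uses arginine to make the creatine precursor and releases ornithine, went from 13.5 ± 0.336 to 2.23 ± 0.538 CPM. ARG2, the mitochondrial arginase that makes ornithine, was the single gene of this group that rose, from 16.4 ± 0.423 to 36.1 ± 0.952 CPM (a log2 fold change of 1.14, adjusted p = 2.16e-18, edgeR quasi-likelihood test).

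Methylthioadenosine, the by-product of spermidine and spermine synthesis, is recycled by a short pathway whose 5 genes were split, 2 higher and 3 lower. Over all genes tested the shares were 41.8% and 41.2%. APIP (21.5 ± 0.761 to 13.8 ± 1.13 CPM) and MTAP, which takes the first step (51.4 ± 0.891 to 33.6 ± 2.57 CPM), fell. MRI1 went from 13.2 ± 0.207 to 17.03 ± 1.75 CPM, and ENOPH1 from 57.6 ± 1.33 to 67.8 ± 3.29 CPM, a call lost with no filter on low counts (adjusted p = 0.336).

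Spermidine is also used to make hypusine, a modified lysine of the translation factor eIF5A. Of 4 genes of this step 3 were higher and 1 lower, against 41.8% and 41.2% of all genes tested. DOHH, the hydroxylase that completes hypusine, rose from 23.0 ± 0.719 to 57.6 ± 1.49 CPM (a log2 fold change of 1.32, adjusted p = 1.69e-21, edgeR quasi-likelihood test). DHPS, which transfers the spermidine part, went from 53.6 ± 1.66 to 59.5 ± 4.79 CPM (a log2 fold change of 0.15, adjusted p = 0.00666). That call was lost without untreated replicate 2 (adjusted p = 0.0511), when MGO replicate 1 was left out (0.221) and when both libraries numbered 1 were (0.209). It was also lost with library size as the only scaling (log2 fold change 0.04, adjusted p = 0.442, edgeR quasi-likelihood test). The sign of DHPS turned with no filter on low counts (log2 fold change -0.03). EIF5A went from 863 ± 8.46 to 942 ± 24.5 CPM (a log2 fold change of 0.13, adjusted p = 0.000957, edgeR quasi-likelihood test). Its call was not followed over the other settings. EIF5A2, the second eIF5A gene, fell from 21.7 ± 0.933 to 11.1 ± 0.200 CPM.

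Genes linked to transport were mostly lower, 6 of 9 tested, with 2 higher and 1 not called (41.2% and 41.8% of all genes tested were lower and higher). SLC7A2, a cationic amino acid transporter, fell from 58.5 ± 2.76 to 15.1 ± 0.699 CPM, and CAV1, a caveolar protein linked to polyamine uptake, from 90.9 ± 0.523 to 22.9 ± 1.17 CPM. SLC3A2, the shared heavy chain of several amino acid transporters, rose from 94.6 ± 3.01 to 983 ± 3.08 CPM (a log2 fold change of 3.38), and SLC7A1, another cationic amino acid transporter, stood at 147, 186 and 215 CPM in MGO libraries 1, 3 and 4 against 117 ± 1.502 CPM in untreated. The spread of SLC7A1 in MGO was wide, and its call (log2 fold change 0.64, adjusted p = 0.0159) was lost without MGO replicate 3 (adjusted p = 0.0632) and without untreated replicate 1, 2 or 4 (0.0508, 0.0561 and 0.0515). With no filter on low counts it was lost as well (adjusted p = 0.0864, edgeR quasi-likelihood test). Of 4 other tested polyamine genes, 2 were lower and 2 not called. SAT2, a relative of SAT1, differed by little (45.2 ± 0.584 to 41.2 ± 2.21 CPM, a log2 fold change of -0.13, adjusted p = 0.0121). That call was lost with DESeq2 (adjusted p = 0.0799) and with at least 1 CPM in every library (adjusted p = 0.177, edgeR quasi-likelihood test).

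**Figure D5:**
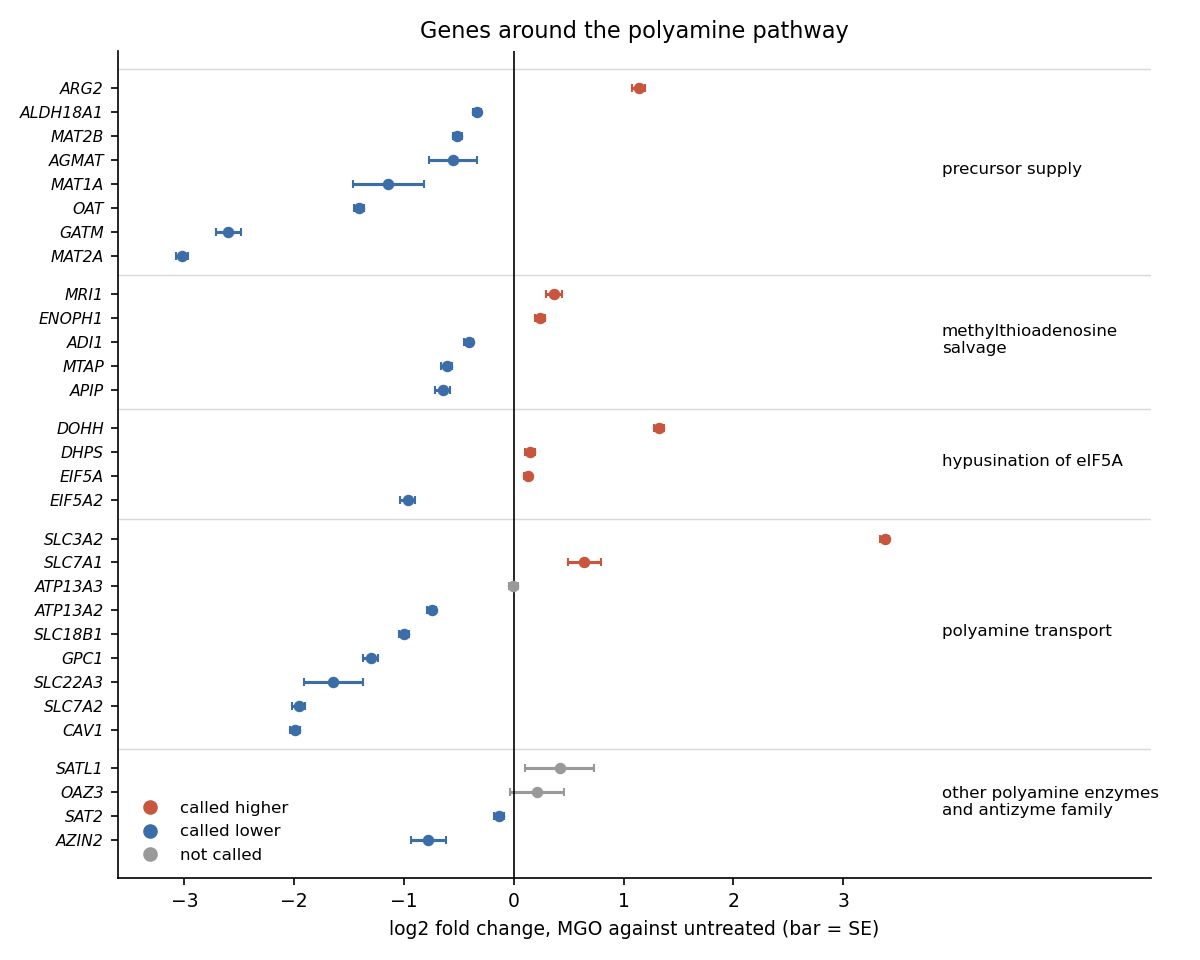
Log2 fold change in MGO against untreated, with its SE, of the 30 tested genes of the wider list. They supply precursors, recycle by-products, use spermidine or move polyamines, or are other polyamine enzymes and antizyme family genes. MAT2A and GATM lie furthest to the left and SLC3A2 furthest to the right. Of the 30 genes, 19 are called lower, 8 higher and 3 not called.

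Across the 6 libraries, the genes whose log2 CPM followed SMOX most closely, among 268 genes averaging at least 5 CPM and having a log2 fold change within 0.1 of its own, were RSL24D1 (Pearson's r = 0.99996), KDM7A (0.99987) and SRSF7 (0.99986). The median r of those 268 genes was 0.996, since all of them separate the same 2 groups, so these values describe likeness only.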

How the data were processed

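Each library has its own deposited table of whole-number read counts by gene symbol, without normalization. The submitters' processing notes name HTSeq 0.9.1, STAR 2.4, Trim Galore, Picard and build hg38, and the sources used here give no settings, annotation or strandedness. Per the labels' protocols, 500 ng of total RNA (RIN 10) underwent poly(A) selection and 8 PCR cycles before paired 100-base sequencing, without mention of molecular identifiers, so counting error understates the error. Of the rows, 29 carry a date in place of a symbol; they were kept and none is named.

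Groups were compared with edgeR 4.0.16 in R 4.3.3 (limma 3.58.1 and DESeq2 1.42.0 in alternatives): filterByExpr, TMM, robust glmQLFit, two-sided glmQLFTest, 4 residual degrees of freedom, Benjamini-Hochberg over 17415 genes at 0.05. The SE is the log2 fold change over the square root of F. Log2 CPM used a prior count of 2 and count ratios a pseudocount of 0.5. Scripts were tested on simulated data in which only a small part of the genes changed. Most genes were called here, so that test does not bear on the choice of scaling. No pair of libraries within a group agreed within sampling noise (chi-square per degree of freedom 1.88 to 14.7). Positions, exons and transcripts come from GENCODE release 29 on GRCh38, promoters from RefSeq.

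The members, lists and tests were chosen with earlier results of these data known. All 10 members were named. In each group of the wider list, the rule named up to 2 called rises and 2 called falls, by size, with a mean of at least 5 CPM. EIF5A, GLO1 and the 3 genes most like SMOX, the member with the largest change, were also named. Alternatives covered scaling, the low-count filter, the tool, the fold tested, depth, the replicate number and leaving out libraries.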

Additional observations from a re-analysis of the deposited data

How the results depend on the processing

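Over 20 other settings, 8 polyamine genes were called higher in all but 4, which gave 7 (without MGO replicate 1), 6 (library size as the only scaling), 4 (no filter on low counts) and 3 (against a fold of 1.5). The count lower was 2 in all but the last, which called 0 by edgeR, with 1 lower at an unadjusted p under 0.05. The counts over all genes moved too. In those 4 settings, in that order, 7441 of 18566, 6554 of 17415, 8861 of 35722 and 4363 of 17415 genes were called higher. The main fit called 7282 of 17415 higher. With no filter, ODC1 (log2 fold change -0.024), OAZ2 (-0.045) and DHPS (-0.035) reversed. There the 10 genes shifted by a median of -0.18, while with no filter but the scaling factors of the filtered genes, a setting chosen after seeing the data, they shifted by -0.00096 and 8 were again higher. Library size as the only scaling moved the median of all genes by -0.11 and that of the 10 genes by the same amount. The median of all genes tested moved by 0.37 when the low genes were taken in with those factors kept, and by 0.19 when the factors were also recomputed.

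For the wider pathway, 5 were called higher with no filter, and 3 higher and 11 lower against a fold of 1.5. Its median log2 fold change was -0.64 with library size only, -0.45 with at least 1 CPM in every library, -0.58 without both libraries numbered 1, -0.48 after thinning the untreated counts to the mean MGO total, -0.33 with no filter and the scaling factors of the filtered genes, and -0.68 to -0.44 when each library was left out. Over all 17415 genes tested, 4363 were higher and 3942 lower against a fold of 1.5.

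Numbers 1 and 4 occur in both groups. Over all genes tested, deviations of same-numbered libraries from their group means were not correlated (r = 0.02 and -0.01). That r counts low genes like high ones, so it cannot exclude a shared effect on some genes. Both libraries numbered 1 had the highest mitochondrial share of their group. With the replicate number as a block, 8 polyamine genes were still higher and 2 lower, the wider list had a median of -0.47, and the calls on DHPS (adjusted p = 0.0593) and SAT2 (0.105) were lost. PAOX had the fewest counts of the 10 genes, 29 to 49 in MGO libraries.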
